A study of Mus musculus with 8 samples.

Results

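The primary (azurophil) granule genes described here are Mpo, Elane, Prtn3, Ctsg, Ctsc, Srgn, Fcnb and Ms4a3. They were taken by name, as 8 genes of the promyelocyte stage of neutrophil maturation out of 34199 annotated genes, and all 8 were among the 13080 genes that passed the filter on low counts. Bulk RNA-seq was measured in mouse iGMPs, immortalised granulocyte-macrophage progenitors of C57Bl/6 background that carry the Lys-GFP reporter of the lysozyme locus and HOXA9 fused to an estrogen receptor domain, which is active while estradiol is present. All groups were grown with stem cell factor in the medium. Uninduced cells (0 h) had estradiol at 150 ng/ml. The CAF-1 OFF condition was the same medium with 500 µM IPTG for 48 h, which switches on an shRNA against Chaf1b, a subunit of the histone chaperone CAF-1. IPTG-treated control cells received IPTG for 48 h in medium that also held estradiol at 150 ng/ml, and HOXA9 OFF cells were cultured for 48 h after washing out estradiol. The labels name neither the vector of the IPTG-treated control nor the clone or culture behind a library. Per the study's methods the inducible lines are clones. A legend in the supplement says that 2 separate sub-clones were viewed as tracks in every group but the IPTG-treated control, and does not say which library is which. Whether the groups of libraries share clones is thus not stated, and differences between clones were not tested. Each of the 4 groups had 2 libraries, and p-values rest on the spread between libraries of a group, estimated over all 4 groups.

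Primary granules are the first granules a maturing neutrophil makes. Their contents are transcribed at the myeloblast and promyelocyte stages, packed into the granule, and kept for the life of the cell, and transcription normally declines as the genes of secondary and tertiary granules come on. The neutrophil serine proteases are made as inactive precursors that are trimmed by a dipeptidase inside the granule and held there on a proteoglycan core, and myeloperoxidase turns hydrogen peroxide into hypochlorous acid in the phagosome.

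Chaf1b, the shRNA target, had 96.7 and 100.2 CPM (counts per 1000000 of the TMM-scaled library size) in the uninduced libraries, 95.0 and 102 in the IPTG-treated controls, 18.7 and 9.72 with CAF-1 OFF and 48.3 and 41.0 with HOXA9 OFF. It was lower in CAF-1 OFF cells than in uninduced cells (log2 fold change -2.79, SE 0.27, edgeR FDR 0.00236). Gene counts per library were between 14044284 and 22423837. The share of reads outside any gene was 14.6% in replicate 1 of the IPTG-treated control, the others lying between 5.30% and 7.79%.

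The 8 genes together took 1.36% and 0.963% of gene counts in the 2 uninduced libraries. The IPTG-treated controls gave 1.29% and 0.982%, the CAF-1 OFF libraries 1.51% and 1.60%, and the HOXA9 OFF libraries 0.873% and 0.642%. The CAF-1 OFF libraries thus held the highest shares and the HOXA9 OFF libraries the lowest, with no overlap with the other groups. Mpo alone made up 0.652% and 0.416% of uninduced gene counts and 0.820% and 0.823% of those of CAF-1 OFF cells. With HOXA9 OFF it made up 0.324% and 0.2315%. Mpo and Ctsg held most of the counts of the 8 genes in uninduced cells, and the means of both were lower with HOXA9 OFF. The mean of Srgn was lower there too, while those of Elane, Prtn3, Ctsc, Fcnb and Ms4a3 were higher. The pooled share therefore does not describe each gene. In these bulk samples, fewer cells of a type and less RNA per cell cannot be told apart.

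A gene was called changed at an edgeR quasi-likelihood FDR under 0.05, adjusted over all 13080 genes, and a change of at least 1.5-fold. In CAF-1 OFF against uninduced cells, Elane, Ctsc and Fcnb were called higher and none of the 8 lower, where 10.5% of all tested genes were called higher and 3.5% lower. The same 3 genes were called higher against IPTG-treated control cells, with 9.56% of all genes higher and 3.2% lower. In HOXA9 OFF against uninduced cells, Ctsc, Fcnb and Ms4a3 were called higher and Ctsg lower, beside 25.2% of all genes higher and 22.1% lower. In the direct comparison, Mpo and Ctsg were called higher and Ctsc and Fcnb lower in CAF-1 OFF than in HOXA9 OFF cells, beside 22.2% of all genes higher and 21.4% lower. Scaling by library size alone made the shares of all genes 20.8% higher and 28.3% lower in HOXA9 OFF against uninduced cells, and 30.2% and 15.8% in the direct comparison, and each of these calls on the 8 genes kept its direction. The comparisons with uninduced cells share those libraries, so their values are set side by side and not correlated.

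IPTG-treated control and uninduced cells overlapped for all 8 genes, as for 81.7% of all tested genes. No gene was called by edgeR between these groups (0% of all genes higher and 0% lower), with 100 of 13080 genes at an unadjusted p under 0.05, and DESeq2 called 5 genes higher. The 8 log2 fold changes lay between -0.07 and 0.05.

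**Figure D1:**
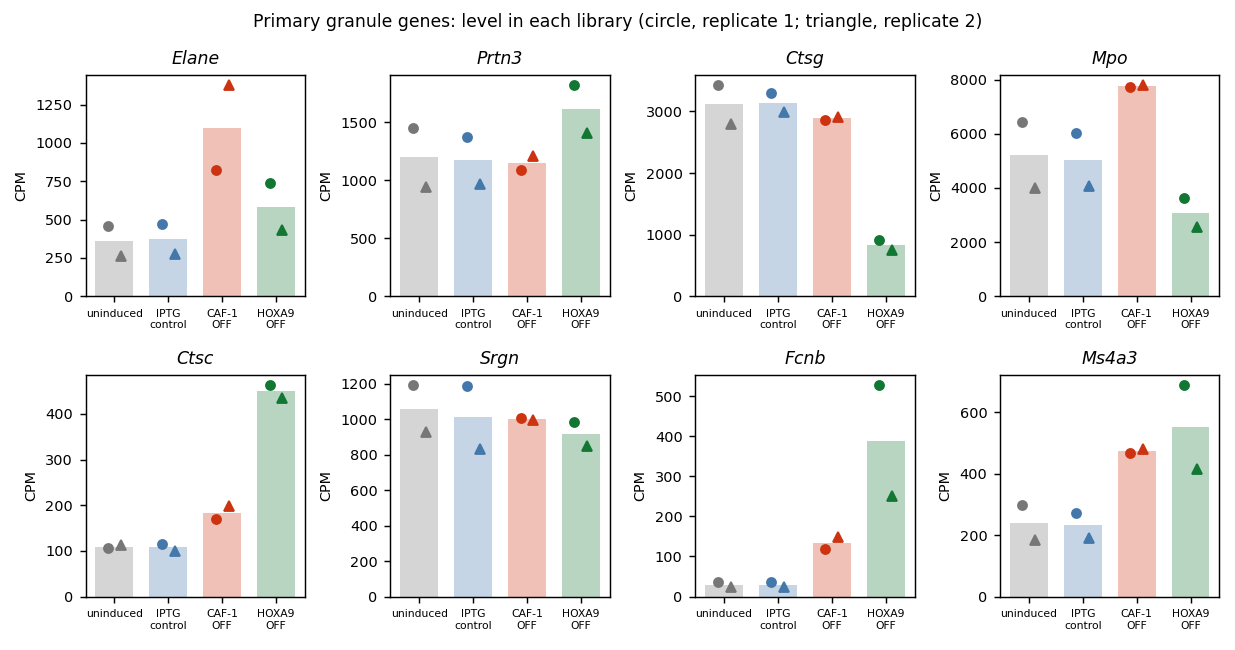
Level of each primary granule gene in CPM (y axis, from 0, a separate scale for each gene) by group (x axis). Bars are means of 2 libraries, circles replicate 1 and triangles replicate 2. Elane is highest in both CAF-1 OFF libraries (822 and 1378 CPM), and Ctsg is lowest in both HOXA9 OFF libraries (917 and 752 CPM).

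The median log2 fold change of the 8 genes was 0.66 in CAF-1 OFF against uninduced cells, where that of all tested genes was 0.01. It was 0.69 against the IPTG-treated control (all genes 0.01), 0.57 in HOXA9 OFF against uninduced cells (all genes 0.01) and -0.04 in CAF-1 OFF against HOXA9 OFF cells (all genes 0.04). The medians hide unequal members. The 8 values for CAF-1 OFF against uninduced cells ran from -0.11 to 2.17, and both CAF-1 OFF libraries lay above both uninduced libraries for 5 genes and overlapped them for 3. Of all tested genes, 35.3% lay above in this way, 33% below, and 31.7% overlapped. In HOXA9 OFF against uninduced cells they ran from -1.90 to 3.70, with 3 genes above, 2 below and 3 overlapping, beside 39.2%, 38.9% and 21.9% of all tested genes.

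The calls in CAF-1 OFF cells rested on few libraries. Without replicate 1 of the uninduced cells, or without replicate 2 of the CAF-1 OFF cells, 0 of the 8 genes were called against uninduced cells, and without uninduced replicate 2 Ctsc alone was. Against the IPTG-treated control, 0 were called without CAF-1 OFF replicate 2 or without control replicate 2, 2 without CAF-1 OFF replicate 1, and 1 without control replicate 1. The genome-wide share called higher fell with them, from 10.5% to 1.01% without uninduced replicate 1, 1.83% without CAF-1 OFF replicate 2 and 3.93% without uninduced replicate 2. In the comparison with IPTG-treated control cells this share fell from 9.56% to 1.59% without CAF-1 OFF replicate 2, 1.15% without control replicate 2, 5.66% without CAF-1 OFF replicate 1 and 1.64% without control replicate 1. The log2 fold changes of Elane, Ctsc and Fcnb stayed above 0 in each of these fits, as described below. In HOXA9 OFF against uninduced cells, the genes called in the full fit kept their directions when any library was left out. Log2 fold changes ran from 1.99 to 2.08 for Ctsc, 3.07 to 4.14 for Fcnb, 0.78 to 1.59 for Ms4a3 and -2.05 to -1.75 for Ctsg. With the replicate number as a block, Mpo and Ms4a3 were called higher as well in CAF-1 OFF cells against either control group, making 5 of 8.

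**Figure D2:**
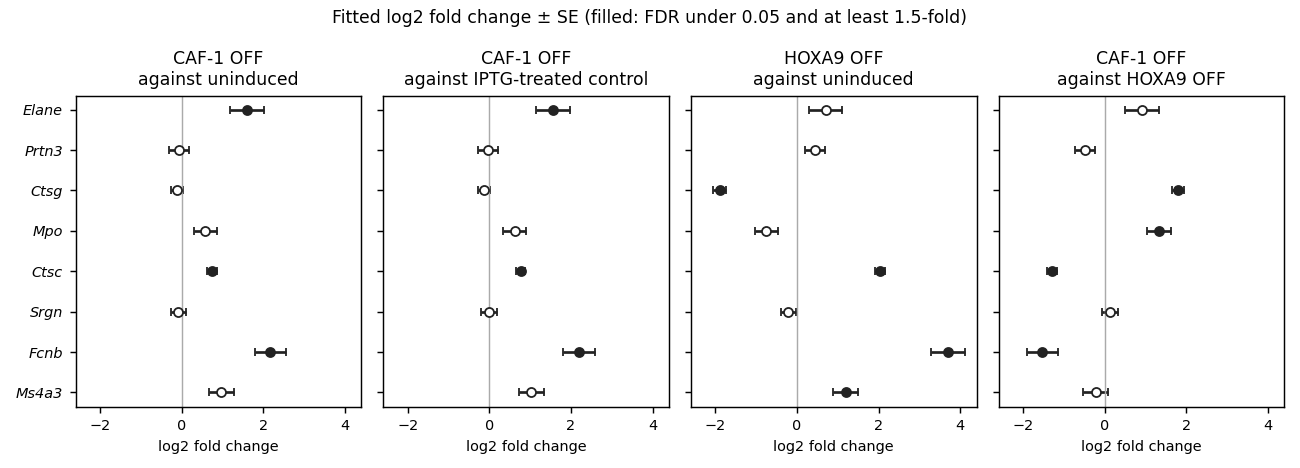
Fitted log2 fold change with its SE (x axis) of each gene (y axis) in 4 comparisons, from edgeR on 8 libraries, 2 per group. Filled points passed FDR under 0.05 and 1.5-fold. Ctsc and Fcnb are filled in all 4 panels, to the left in the direct comparison, and Ctsg is filled in the last 2 panels.

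Among the serine proteases, Elane and Prtn3 lie next to each other and Ctsg lies on another chromosome. Elane, neutrophil elastase, spans chr10:79349057-79350961 on the plus strand (mm9, GENCODE vM1), in 5 exon blocks. Prtn3, proteinase 3, spans chr10:79337221-79345919 on the same strand and ends 3137 bases before Elane starts. Ctsg, cathepsin G, is at chr14:56718718-56721411 on the minus strand. The promoters of these 3 genes are printed with that of Fcnb, the gene with the largest fold changes against the control groups, because Elane and Prtn3 are neighbours with different values in CAF-1 OFF cells, and because Ctsg fell where Fcnb rose. Each runs from 250 bases before to 50 bases after the RefSeq start site (GRCm38.p6), 5′ to 3′ on the strand of the gene, and matched mm9 exactly once, Elane at chr10:79348807-79349106, Prtn3 at chr10:79342162-79342461, Ctsg at chr14:56721362-56721661 and Fcnb at chr2:27940349-27940648. Capitals mark matches, on either strand, to the PU.1 letters GAGGAA, the C/EBP letters TTNNGNAA or the RUNX letters TGNGGT.
Elane: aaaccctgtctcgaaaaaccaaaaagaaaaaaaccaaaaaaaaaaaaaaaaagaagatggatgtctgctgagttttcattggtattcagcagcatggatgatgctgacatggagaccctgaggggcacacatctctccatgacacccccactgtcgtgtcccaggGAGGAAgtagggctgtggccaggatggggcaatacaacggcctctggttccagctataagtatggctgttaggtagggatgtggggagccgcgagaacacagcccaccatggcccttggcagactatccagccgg
Prtn3: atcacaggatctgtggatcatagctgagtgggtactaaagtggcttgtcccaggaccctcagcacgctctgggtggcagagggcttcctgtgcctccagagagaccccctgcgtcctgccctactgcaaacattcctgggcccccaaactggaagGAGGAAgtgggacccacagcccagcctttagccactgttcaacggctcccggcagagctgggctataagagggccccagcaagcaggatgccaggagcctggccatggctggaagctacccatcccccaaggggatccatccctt
Ctsg: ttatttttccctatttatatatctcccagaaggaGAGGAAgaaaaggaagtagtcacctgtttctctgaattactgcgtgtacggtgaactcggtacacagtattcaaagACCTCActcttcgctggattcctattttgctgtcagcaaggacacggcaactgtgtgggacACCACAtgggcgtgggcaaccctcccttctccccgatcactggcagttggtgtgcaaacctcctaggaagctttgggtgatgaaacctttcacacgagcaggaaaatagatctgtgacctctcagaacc
Fcnb: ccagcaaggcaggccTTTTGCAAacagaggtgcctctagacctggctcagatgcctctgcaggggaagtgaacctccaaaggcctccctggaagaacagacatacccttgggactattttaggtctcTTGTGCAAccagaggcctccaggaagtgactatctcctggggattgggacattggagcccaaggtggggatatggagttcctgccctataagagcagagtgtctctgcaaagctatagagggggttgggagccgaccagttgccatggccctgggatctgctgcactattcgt

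With the start site as position 0, GAGGAA began at -85 in Elane and at -95 in Prtn3, and each also held the MYB letters AACNG, as aacgg, at -50 and -55. Ctsg had GAGGAA at -216 and 2 RUNX matches on the other strand, at -140 and -79. Fcnb had no GAGGAA and 2 C/EBP matches, at -235 and -123, the first sharing 1 base with an AACNG match. Not marked by capitals, AACNG lay also at -193, -92 and -36 in Ctsg, -20 in Elane and -104 and -61 in Prtn3. In Fcnb it lay at -228, -156 and 13. Among the 4 motifs, no other matches in the printed promoters overlapped. Over all 8 genes, for each of which RefSeq gave at least 1 promoter, GAGGAA occurred in 6, TTNNGNAA in 3, TGNGGT in 3 and AACNG in 7. In 32851 RefSeq promoters of this length the shares were 28.3%, 40.7%, 45.8% and 80.3%. These are matches of letters only.

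Elane stood at 461 and 259.99 CPM in the uninduced libraries, 473 and 277 in the IPTG-treated controls, 822 and 1378 with CAF-1 OFF, and 738 and 432 with HOXA9 OFF. Both CAF-1 OFF libraries lay above every other library, although they differed from each other (replicate 1 minus replicate 2, -0.74 on the log2 scale), and the HOXA9 OFF libraries overlapped the uninduced ones. The increase in CAF-1 OFF against uninduced cells was 1.61 on the log2 scale (SE 0.42, edgeR FDR 0.0334). Against the IPTG-treated control it was 1.55 (SE 0.42, FDR 0.0406). Leaving out single libraries gave between 1.19 and 2.08 against uninduced cells, with an FDR of 0.208 without CAF-1 OFF replicate 2, 0.15 without uninduced replicate 2 and 0.087 without uninduced replicate 1. In HOXA9 OFF against uninduced cells the log2 fold change was 0.70 (SE 0.41, FDR 0.18). The difference between CAF-1 OFF and HOXA9 OFF cells was 0.91 and did not pass the test (SE 0.41, FDR 0.095), which it passed with the replicate block (1.02, FDR 0.0471) and without HOXA9 OFF replicate 1 (1.34, FDR 0.0482). Without CAF-1 OFF replicate 2 it was 0.49 (FDR 0.44), and without HOXA9 OFF replicate 2 it was 0.57 (FDR 0.328).

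Prtn3 was at 1449.7 and 943 CPM in the uninduced libraries, 1371 and 971 in the IPTG-treated controls, 1091 and 1209 with CAF-1 OFF, and 1820.2 and 1409 with HOXA9 OFF. The CAF-1 OFF libraries fell between the uninduced ones, and the HOXA9 OFF libraries overlapped them. Log2 fold changes were -0.06 with CAF-1 OFF (SE 0.25, edgeR FDR 0.892) and 0.43 with HOXA9 OFF (SE 0.25, FDR 0.169), both against uninduced cells. Between CAF-1 OFF and HOXA9 OFF cells it was -0.49 (SE 0.25, FDR 0.13), with both CAF-1 OFF libraries below both HOXA9 OFF libraries. The exons of Prtn3 share 159 bases (9.18% of their length) with BC005764, a gene on the opposite strand with 1440 to 6198 counts per library, at most 23.8% of the counts of Prtn3. Whether reads were counted by strand is not stated, so reads of this stretch could belong to either gene.

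The ratio of Elane to Prtn3, as CPM over CPM and read only between libraries, was 0.318 and 0.276 in uninduced cells. IPTG-treated controls had 0.345 and 0.285, and HOXA9 OFF libraries 0.406 and 0.307. With CAF-1 OFF the ratio reached 0.754 and 1.14, above all 6 other libraries.

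Ctsg, a chymotrypsin-like protease, was at 3429 and 2799 CPM in the uninduced libraries, 3302 and 2985 in the IPTG-treated controls, 2867 and 2913 with CAF-1 OFF, and 917 and 752 with HOXA9 OFF. Both HOXA9 OFF libraries lay far below the rest, while CAF-1 OFF libraries lay within the range of the uninduced ones. Against uninduced cells Ctsg fell by 1.90 (log2) with HOXA9 OFF (SE 0.15, edgeR FDR 4.61e-05), with a value of -0.11 for CAF-1 OFF (SE 0.15, FDR 0.635). It was higher by 1.79 in CAF-1 OFF than in HOXA9 OFF cells (SE 0.15, FDR 9.42e-05). Both calls held whichever library was left out, with log2 fold changes from -2.05 to -1.75 and from 1.65 to 1.93.

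Ctsc encodes cathepsin C, the dipeptidase that activates the granule serine proteases, and spans chr7:95426595-95459398 on the plus strand in 9 exon blocks. It was at 107 and 112 CPM in the uninduced libraries, 115 and 101 in the IPTG-treated controls, 169 and 197 with CAF-1 OFF, and 463 and 436 with HOXA9 OFF. The groups stood in 3 separate tiers, with the 4 control libraries lowest and HOXA9 OFF cells highest. Ctsc rose by 0.74 on the log2 scale with CAF-1 OFF (FDR 0.00798 by edgeR, SE 0.11) and by 2.04 in HOXA9 OFF cells (SE 0.12, FDR 1.67e-05), both against uninduced cells. Against the IPTG-treated control the increase in CAF-1 OFF cells was 0.77 (SE 0.12, FDR 0.00886). CAF-1 OFF cells were below HOXA9 OFF cells by a log2 fold change of -1.29 (SE 0.12, FDR 0.00011). Without CAF-1 OFF replicate 2 the first value was 0.63 with an FDR of 0.0688, and without uninduced replicate 1 it was 0.71 with an FDR of 0.0693. Ctsc is also present in lysosomes of many other cell types.

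Mpo, myeloperoxidase, spans chr11:87607083-87617915 on the plus strand in 15 exon blocks. It was at 6445 and 3986 CPM in the uninduced libraries, 6030.4 and 4075 in the IPTG-treated controls, 7744 and 7803 with CAF-1 OFF, and 3623 and 2558 with HOXA9 OFF. All control libraries lay between the CAF-1 OFF libraries above and the HOXA9 OFF libraries below. The difference between CAF-1 OFF and HOXA9 OFF cells passed the test, at 1.33 on the log2 scale (SE 0.29, edgeR FDR 0.00566). Neither difference from uninduced cells did, at 0.58 for CAF-1 OFF (SE 0.28, FDR 0.181) and -0.76 for HOXA9 OFF cells (SE 0.28, FDR 0.0506). With the replicate block both did (0.63, FDR 0.0362, and -0.74, FDR 0.00747). The second lay at the threshold and passed it under several alternatives, among them DESeq2 (-0.74, FDR 0.00691) and the fits without uninduced replicate 2 (-1.06, FDR 0.022) or without HOXA9 OFF replicate 1 (-1.03, FDR 0.0281). It was smaller without uninduced replicate 1 (-0.37, FDR 0.329) and without HOXA9 OFF replicate 2 (-0.52, FDR 0.192). For CAF-1 OFF, leaving out single libraries gave from 0.27 (FDR 0.573, without uninduced replicate 2) to 0.96 (FDR 0.124, without uninduced replicate 1), and none of these fits passed. Exons of the antisense transcript Gm11505 cover 15.0% of those of Mpo, but it had 1 to 19 counts per library.

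Srgn encodes serglycin, the proteoglycan core on which proteases and other cationic contents are packed, and spans chr10:61956581-61990199 on the minus strand. It was at 1192 and 927 CPM in the uninduced libraries, 1186.5 and 834 in the IPTG-treated controls, 1009 and 996 with CAF-1 OFF, and 984 and 847 with HOXA9 OFF. Both treated groups overlapped the uninduced cells. The log2 fold change was -0.08 in CAF-1 OFF (SE 0.19, edgeR FDR 0.798) and -0.21 in HOXA9 OFF cells (SE 0.19, FDR 0.378). Between these groups it was 0.13 (SE 0.19, FDR 0.591).

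Fcnb encodes ficolin B, a lectin of the complement pathway made in myeloid precursors, and spans chr2:27931898-27940405 on the minus strand. It was at 36.7 and 23.0 CPM in the uninduced libraries, 35.5 and 23.7 in the IPTG-treated controls, 119.6 and 149.6 with CAF-1 OFF, and 527 and 249.9 with HOXA9 OFF. As with Ctsc, the groups did not overlap apart from the 2 control groups, and the HOXA9 OFF libraries differed 2.11-fold from each other. Fcnb rose by 2.17 on the log2 scale in CAF-1 OFF cells (SE 0.39, edgeR FDR 0.012). It rose by 3.70 in HOXA9 OFF cells (SE 0.41, FDR 0.000189), and leaving out single libraries gave from 3.07 to 4.14. CAF-1 OFF cells were below HOXA9 OFF cells by a log2 fold change of -1.53 (SE 0.37, FDR 0.0102). The call was lost without CAF-1 OFF replicate 1 (-1.38), and leaving out single libraries gave from -1.98 to -0.90. Against the IPTG-treated control the CAF-1 OFF value was 2.19 (SE 0.39, FDR 0.0135). Against uninduced cells the CAF-1 OFF call was lost without uninduced replicate 1 (2.54, FDR 0.0613), uninduced replicate 2 (1.87, FDR 0.0672) or CAF-1 OFF replicate 2 (2.00, FDR 0.0877).

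Ms4a3 encodes a membrane-spanning protein of the MS4A family that marks committed granulocyte-monocyte progenitors, and spans chr19:11703987-11715341 on the minus strand. It was at 298 and 183 CPM in the uninduced libraries, 273 and 189.97 in the IPTG-treated controls, 465 and 479.5 with CAF-1 OFF, and 687 and 414 with HOXA9 OFF. The libraries of both treated groups lay above all control libraries and overlapped each other. The increase in HOXA9 OFF cells was 1.19 on the log2 scale (SE 0.31, edgeR FDR 0.0117). It was lost without uninduced replicate 2 (0.88, FDR 0.0772) or HOXA9 OFF replicate 1 (0.78, FDR 0.0546). In CAF-1 OFF cells the value was 0.97 and missed the threshold (SE 0.31, FDR 0.0601), which it passed under several alternatives, among them DESeq2 (0.97, FDR 0.00378) and the replicate block (1.04, FDR 0.0108). Leaving out single libraries gave from 0.66 (FDR 0.239, without uninduced replicate 2) to 1.36 (FDR 0.09, without uninduced replicate 1), and among these fits only the 2 that each left out 1 HOXA9 OFF library passed the threshold. The value between the treated groups was -0.22 (SE 0.30, FDR 0.569).

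Levels of different genes were compared per length, as CPM per kilobase of exons. In uninduced cells Ctsg was highest at a mean of 3107, above Mpo at 1523, Prtn3 at 691, Srgn at 482, Elane at 392, Ms4a3 at 128, Fcnb at 22.3 and Ctsc at 18.9. In this order the libraries of Srgn and Elane overlapped, as did those of Fcnb and Ctsc, and the lower Prtn3 library (544.5) was barely above the higher Srgn library (542.6). In CAF-1 OFF cells Ctsg (2885) and Mpo (2270.0) stayed the highest, and Elane (1196) stood above Prtn3 (664), with both Elane libraries above both Prtn3 libraries. In HOXA9 OFF cells Prtn3 (932), Mpo (903), Ctsg (833) and Elane (636) overlapped between neighbours. The exon lengths were unions over all annotated transcripts, from 920 bases for Elane to 5801 for Ctsc, which understates genes with long unused exons. No 50-base window of the longest coding transcript of any of the 8 genes occurred, on the same strand, in a protein-coding transcript of another gene, which leaves aside the overlaps with opposite-strand genes given for Prtn3 and Mpo.

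The replicate libraries differed more for these genes than for most in 3 of the 4 groups, and less in CAF-1 OFF cells. In uninduced cells 7 of 8 genes were higher in replicate 1, with a median absolute log2 difference of 0.65 beside 0.19 over all tested genes. In IPTG-treated control cells all 8 were higher in replicate 1 (0.52 beside 0.18), and in HOXA9 OFF cells all 8 were again (0.44 beside 0.24). In CAF-1 OFF cells 1 of 8 was, with 0.10 beside 0.17. Of all tested genes, between 49.5% and 55.1% were higher in replicate 1 of a group. The largest of these differences were 1.08 for Fcnb in HOXA9 OFF cells and 0.83 for Elane in uninduced cells.

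**Figure D3:**
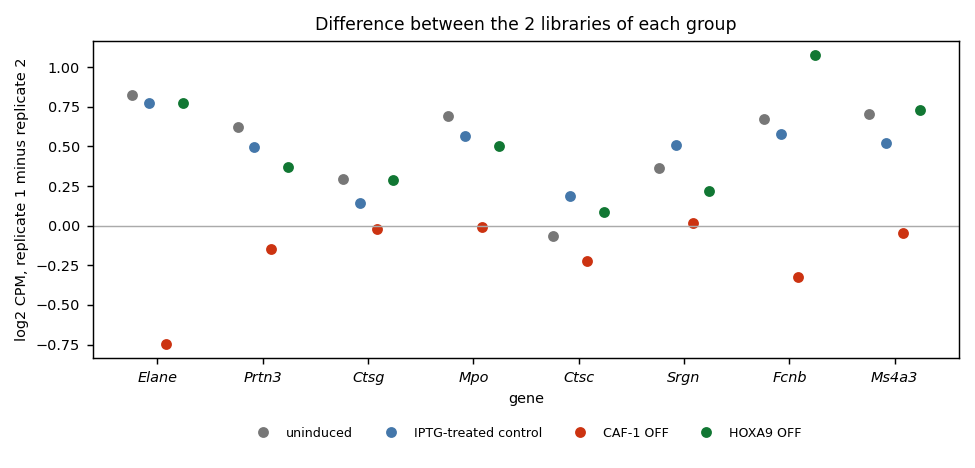
Log2 difference in CPM between replicate 1 and replicate 2 (y axis) for each gene (x axis) in each group (colour), 1 point per gene and group. Points of the uninduced, HOXA9 OFF and IPTG-treated control groups lie above 0 apart from Ctsc in uninduced cells, and 7 of 8 CAF-1 OFF points lie below 0.

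Across the 8 libraries, the members fell into different patterns of log2 CPM. These Pearson correlations are descriptions over 8 libraries that share 4 groups. Fcnb went with Ctsc (r = 0.952) and Ms4a3 (r = 0.945), Elane with Ms4a3 (r = 0.824), and Ctsg ran opposite to Ctsc (r = -0.933). Elane and Prtn3 had r = 0.39. Of all tested genes, the most alike were Gca (0.992), Far2 (0.980) and St8sia4 (0.974) for Elane, and Rnf5 (0.996), 0910001L09Rik (0.971) and Insig2 (0.966) for Prtn3. For Mpo they were Zfp523 (0.985), Clec11a (0.981) and Pdcd4 (0.978), and for Ms4a3 Gata1 (0.987), 0610009B22Rik (0.983) and Prkd2 (0.979). For Ctsg they were Alg8 (0.998), Pole3 (0.998) and Mrpl42 (0.997), with 970 genes above 0.95. For Ctsc they were Txndc16, Sdccag8 and Dock8 (all 0.998), with 1034 genes above 0.95. For Fcnb they were Psd4 (0.997), Lbp (0.996) and Arap3 (0.995), with 381 above 0.95. For Srgn, with 2 genes above 0.95, they were AU019823 (0.968), AI848100 (0.952) and Gm6316 (0.944).

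Other proteins of azurophil granules and lysosomes were described from a list of 14 genes, all tested. With CAF-1 OFF, 3 were called higher than in uninduced cells and 0 lower, beside 10.5% and 3.5% of all tested genes, with a median log2 fold change of 0.34. The 3 were Lyz1, a lysozyme, Nkg7, a granule membrane protein, and Arsb, the lysosomal arylsulfatase B. Arsb rose from 34.5 and 39.8 CPM to 68.2 and 111 CPM (log2 fold change 1.27, edgeR FDR 0.014). Nkg7 rose from 12.9 and 6.54 CPM to 35.0 and 30.7 CPM (1.76, FDR 0.0188) and was higher than in HOXA9 OFF cells (2.30, FDR 0.00174). HOXA9 OFF brought 10 of 14 above uninduced cells and 0 below, beside 25.2% and 22.1% of all tested genes, with a median of 1.30. Ctsb, cathepsin B, went from 219 and 224 CPM in the uninduced libraries to 1227 and 4428 with HOXA9 OFF (3.67, FDR 0.000714). Ctsd, cathepsin D, went from 797 and 744 to 2457 and 8383 CPM (2.81, FDR 0.00174). In both, replicate 2 of HOXA9 OFF was the higher, unlike the 8 primary granule genes, and this library also had more of several macrophage markers, such as C1qb, a complement gene of macrophages, at 121 CPM beside 0.434 in replicate 1. Replicate 1 alone lay above both uninduced libraries for Ctsb and Ctsd. Lyz2, the myeloid lysozyme, was listed at 0 in both uninduced libraries. It was at 0.263 and 0.731 CPM with CAF-1 OFF, which missed the threshold (FDR 0.0522), and at 0.163 and 0.595 CPM with HOXA9 OFF, which passed it (FDR 0.031), with a HOXA9 OFF mean at least 2.84-fold above the level of 3 counts in the smaller uninduced library. The HOXA9 OFF counts were 3 and 12, so replicate 1 lay at this floor and the value rests on replicate 2. CAF-1 OFF counts were 5 and 14. Whether the Lys-GFP reporter of the lysozyme locus affects counts of Lyz2 was not tested.

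Inhibitors of the granule proteases were measured through 14 genes, of which 7 were tested. Slpi, secretory leukocyte protease inhibitor, which binds elastase and cathepsin G, rose in both treatments. It went from 253 and 157 CPM in uninduced cells to 703 and 1517 CPM in CAF-1 OFF (log2 fold change 2.44, edgeR FDR 0.00919) and 757 and 607 CPM in HOXA9 OFF cells (1.73, FDR 0.00592). Stfa1, a stefin that inhibits cysteine cathepsins, rose from 2.36 and 0.770 CPM to 10.4 and 24.8 CPM (3.50, FDR 0.0135) and to 1624 and 872 CPM (9.64, FDR 3.79e-05). These were the 2 genes called in CAF-1 OFF cells, out of 7, where 10.5% of all tested genes were called higher. With HOXA9 OFF, 4 of 7 rose and 1 fell, beside 25.2% and 22.1% of all genes. The last was Cst7, cystatin F, which inhibits cathepsin C, at 149.7 and 148 CPM in uninduced and 76.6 and 73.9 with HOXA9 OFF (log2 fold change -0.98, FDR 0.000977). Serpinb1a, which inhibits elastase, proteinase 3 and cathepsin G, was not called in either, with log2 fold changes of -0.23 in CAF-1 OFF (FDR 0.411) and -0.09 in HOXA9 OFF cells (FDR 0.705). The median of the list was 0.50 in CAF-1 OFF and 1.73 in HOXA9 OFF cells.

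Genes of granule biogenesis, sorting and glycosaminoglycan synthesis made a list of 22, of which 20 were tested. With CAF-1 OFF, 5 of 20 were called higher than in uninduced cells and 0 lower (10.5% and 3.5% of all genes), with a median log2 fold change of 0.26. The 4 largest were Csgalnact1 and Chst11, which build and sulfate the chondroitin chains of proteoglycans such as serglycin, Lyst, which controls granule size, and Csf3r, the G-CSF receptor. With HOXA9 OFF, 11 of 20 rose and 4 fell (25.2% and 22.1% of all genes, median 0.73). Lyst rose by 3.53 (edgeR FDR 1.25e-05) and Csf3r by 2.83 (FDR 1.95e-05). Csgalnact1 was at 29.2 and 29.7 CPM in uninduced, 89.7 and 62.6 CPM in CAF-1 OFF and 4.12 and 6.54 CPM in HOXA9 OFF cells. It rose by 1.37 in CAF-1 OFF (FDR 0.00985), fell by 2.46 in HOXA9 OFF cells (FDR 0.000122), and differed by 3.83 between them (FDR 4.26e-05). Jagn1, an endoplasmic reticulum protein needed by neutrophils, fell by 1.17 in HOXA9 OFF cells (FDR 0.000101).

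Transcription factors of granulocyte and monocyte development made a list of 15, of which 13 were tested. Spi1, the gene of PU.1, had no entry under this symbol, so its level was not looked at. Lef1 did not pass the filter. In CAF-1 OFF cells 4 of 13 were called higher and 0 lower, beside 10.5% and 3.5% of all genes (median 0.53). In HOXA9 OFF cells 8 of 13 were called higher and 3 lower, beside 25.2% and 22.1% of all genes (median 1.32). Cebpe, a factor for the switch from primary to secondary granules, went from 123 and 73.2 CPM in uninduced cells to 277 and 423 CPM in CAF-1 OFF (log2 fold change 1.83, edgeR FDR 0.0126) and 431 and 280.3 CPM in HOXA9 OFF cells (1.86, FDR 0.00215). Gfi1, a repressor needed for neutrophil maturation, rose by 0.73 in CAF-1 OFF (FDR 0.0422), fell by 1.16 in HOXA9 OFF cells (FDR 0.00192) and was higher in the first than in the second by 1.89 (FDR 0.000264). Myb, which sustains progenitors and drives several primary granule promoters, was at 856 and 846 CPM in uninduced, 942 and 760.5 CPM in CAF-1 OFF and 379.8 and 241 CPM in HOXA9 OFF cells. It fell by 1.46 in HOXA9 OFF cells (FDR 0.000712). Runx1 and Stat3 were the others called higher in CAF-1 OFF cells, by 0.81 (FDR 0.00543) and 0.77 (FDR 0.00516). Klf4, Cebpd and Irf8 led the increases in HOXA9 OFF cells.

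Secondary and tertiary granule genes, the next set in normal maturation, were described from 16 genes, of which 15 were tested. With CAF-1 OFF, 11 were called higher than in uninduced cells (10.5% of all genes) and 0 lower, with a median log2 fold change of 2.21, beside 3 of 8 and 0.66 for the primary granule genes. In HOXA9 OFF cells all 15 were called higher (25.2% of all genes). Their median was 8.57, or 7.77 with the gene at 3 counts or fewer in uninduced cells set to its lower bound, beside 0.57 for the primary granule genes. Ltf, lactotransferrin, was at 0.311 and 0.428 CPM in uninduced, 0.473 and 0.522 CPM in CAF-1 OFF and 1439.5 and 968 CPM in HOXA9 OFF cells. Mmp8, the neutrophil collagenase, was at 58.3 and 43.4 CPM in uninduced, 1090.5 and 1936 CPM in CAF-1 OFF and 556 and 376 CPM in HOXA9 OFF cells. It was the exception in the direct comparison, higher in CAF-1 OFF than in HOXA9 OFF cells by 1.70 (edgeR FDR 0.00342), while the other 14 were lower.

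**Figure D4:**
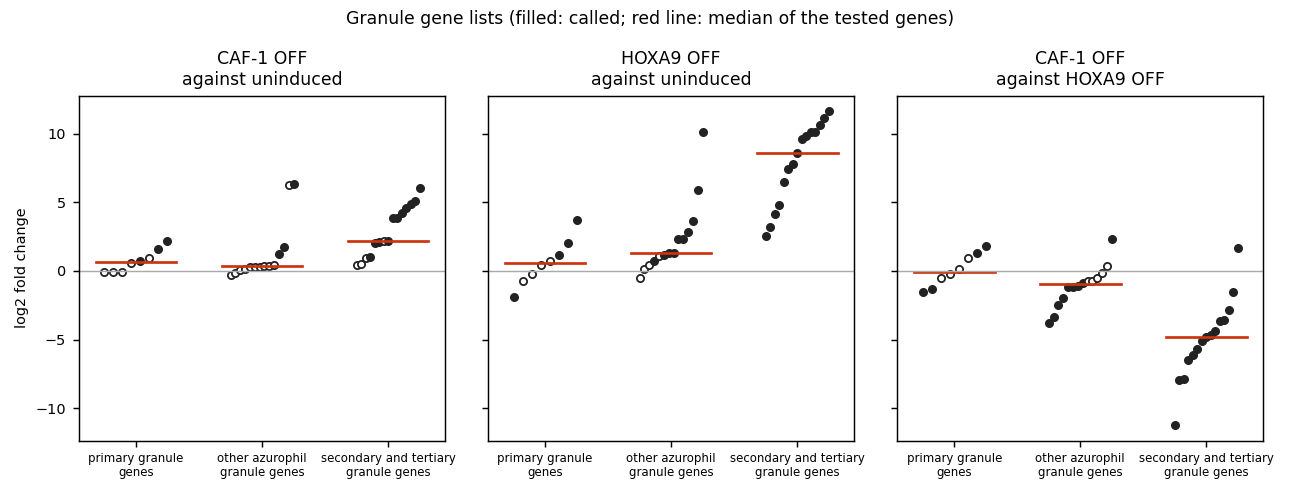
Log2 fold change (y axis) of each tested gene of 3 granule lists (x axis) in 3 comparisons, sorted within each list. Filled points were called, and red lines are medians of the tested genes. In HOXA9 OFF against uninduced cells the primary granule genes lie from -1.90 to 3.70 around a median of 0.57, and the secondary and tertiary granule genes around 8.57. Points for genes at 0 or near it in uninduced cells, such as Lyz2, depend on the prior count.

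Markers of other stages and cell types moved with the treatments. The summed level of 10 later neutrophil markers was 95.3 to 96.9 CPM in uninduced, 98.9 to 101 CPM in IPTG-treated control, 1274 to 2215 CPM in CAF-1 OFF and 6392 to 9434 CPM in HOXA9 OFF cells. All 10 were called higher in HOXA9 OFF (25.2% of all genes) and 7 in CAF-1 OFF cells (10.5%). For 13 monocyte and macrophage markers the sum was 1481 to 1641 CPM in uninduced, 1866 to 2102 CPM in CAF-1 OFF and 3069 to 5094 CPM in HOXA9 OFF cells, with 2 of 11 tested called higher in CAF-1 OFF and 10 in HOXA9 OFF cells. Of the 2 HOXA9 OFF libraries, replicate 2 stood apart in part of this list, with Cd68 at 234 CPM beside 47.2 in replicate 1 and C1qa at 4.41 CPM beside 0, while Emr1 was at 436 beside 493. Without it, the calls on the 8 primary granule genes in HOXA9 OFF against uninduced cells were the same 4, Ctsc, Fcnb and Ms4a3 higher and Ctsg lower. For 6 eosinophil markers it was 731 to 1389 CPM, 1516 to 1773 CPM and 8253 to 13290.0 CPM, with 2 and 6 called higher. For 8 mast cell and basophil markers it was 227 to 291 CPM, 772 to 1171 CPM and 234 to 285.5 CPM, with 2 of 7 tested called higher in CAF-1 OFF cells. The largest parts of the CAF-1 OFF sums were Mmp8 for the later neutrophil markers, F13a1 for the monocyte and macrophage markers, Prg2 for the eosinophil markers and Cpa3 for the mast cell and basophil markers. The part of such cells in the values of the primary granule genes was not tested.

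Megakaryocyte markers (7 genes) summed to 24.2 to 26.3 CPM in uninduced, 194 to 222 CPM in CAF-1 OFF and 129 to 192 CPM in HOXA9 OFF cells. Erythroid markers (8 genes) summed to 72.8 to 84.4, 119 to 142 and 15.6 to 25.1 CPM, with 4, 3 and 4 genes at 3 counts or fewer in both libraries. Most of the sum in uninduced and CAF-1 OFF cells was Car2, at 65.1 and 79.6 and at 126 and 104 CPM. It was at 2.28 and 2.83 CPM with HOXA9 OFF. Gata1 went the other way, from 5.29 and 1.84 CPM in uninduced to 19.6 and 10.8 CPM with HOXA9 OFF. Lymphoid markers (8 genes) summed to 6.45 to 12.4, 29.9 to 37.7 and 3.74 to 8.82 CPM, and fibroblast markers (5 genes) to 12.9 to 21.3, 75.5 to 160.5 and 1.95 to 2.48 CPM. The fibroblast sum was mostly Thy1, a surface protein that other cell types also make, at 159 and 71.4 CPM with CAF-1 OFF. Of the defining fibroblast genes, Col1a1 was at 0.789 and 2.77 CPM there, and Dcn was listed at 0 in every library. The 7 progenitor markers, which include Mpo, summed to 7838 to 10390.0 CPM in uninduced, 11530.0 to 12470.0 CPM in CAF-1 OFF and 3836 to 5195 CPM in HOXA9 OFF cells, with 0 at 3 counts or fewer. Mpo was the largest part of the progenitor sum in each of these groups, so the higher sum with CAF-1 OFF mostly repeats the values of Mpo. Of the 7 progenitor markers, CAF-1 OFF brought 1 above uninduced cells and 0 below by the calls, with a median log2 fold change of 0.23. HOXA9 OFF brought 1 above and 4 below, with a median of -1.455. The 8 promyelocyte markers include 6 of the primary granule genes, so their sum, 8632 to 12630.0 CPM in uninduced cells, describes the same values.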

How the data were processed

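Gene counts of 8 libraries were analysed, in 4 groups of 2 taken from the labels. Per the study's methods and the labels, the authors aligned reads with STAR to mm9 and counted them with HTSeq. They deposited raw counts per gene symbol. The annotation and the strand setting are not given in the sources used here. HTSeq summary lines, with 5.30% to 14.6% of reads outside any gene, were kept out of library sizes and tests.

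All libraries entered a single edgeR 4.0.16 fit in R 4.3.3 (filterByExpr, TMM, glmQLFit and glmQLFTest, a mean per group, no covariate), with Benjamini-Hochberg adjustment over 13080 genes and a call at FDR under 0.05 and 1.5-fold. CPM used TMM-scaled library sizes, and log2 CPM a prior count of 2. SEs came from F statistics. The biological coefficient of variation was 18.9%. A level of 3 counts was the floor. DESeq2 1.42.0, other scalings, filters and thresholds, a replicate block and leaving out each library were alternatives, and the code was tested on simulated counts.

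The 8 genes, the lists and the rule for named genes were chosen with earlier results of these data known. The rule took all 8 genes, up to 4 called genes at each end of a list with non-overlapping libraries, and the 3 genes most correlated with each of the 8. The text prints part of what it gives. Serpinb1a was added after its values were seen. Coordinates are mm9 with GENCODE vM1. Figures were drawn with matplotlib 3.10.9 in Python 3.11.15.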

Additional observations from a re-analysis of the deposited data

How the results depend on the processing

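The number of the 8 genes called in CAF-1 OFF cells was the least stable result. Against uninduced cells it was 3 (10.5% of all genes called higher), 5 with a replicate block (12.2%), 0 at an FDR under 0.01 and 2-fold (2.61%), and from 0 to 4 with 1 library left out (1.01% to 12%). Against the IPTG-treated control it was 3 (9.56%), 5 in a fit of only the compared groups (12.3%), 5 with a replicate block (11.1%), 0 at an FDR under 0.01 and 2-fold (2.03%), and from 0 to 4 with 1 library left out (1.15% to 10.7%). The other alternatives gave 3 or 4. In HOXA9 OFF against uninduced cells 4 of the 8 genes were called, beside 25.2% of all genes higher and 22.1% lower. In CAF-1 OFF against HOXA9 OFF cells 4 were called, beside 22.2% higher and 21.4% lower. Alternatives that kept all 8 libraries gave from 3 to 5 in both. Between IPTG-treated control and uninduced cells the number was 0 throughout.

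The replicate block added Mpo (0.63, FDR 0.0362) and Ms4a3 (1.04, FDR 0.0108) in CAF-1 OFF against uninduced cells, Mpo in HOXA9 OFF against uninduced cells (-0.74, FDR 0.00747) and Elane in CAF-1 OFF against HOXA9 OFF cells (1.02, FDR 0.0471). Deviations of same-numbered libraries correlated at 0.477, 0.293 and 0.31 between pairs of the uninduced, HOXA9 OFF and IPTG-treated control groups, but from -0.05 to 0.07 with CAF-1 OFF cells, and neither the labels nor the study's methods say what a replicate number stands for, so the numbers were not used as pairs in the reported fit.

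Scaling by library size alone moved the median of all genes to -0.18 in HOXA9 OFF against uninduced cells (20.8% called higher and 28.3% lower) and to 0.27 in CAF-1 OFF against HOXA9 OFF cells (30.2% and 15.8%). No called gene changed sign. Values of genes that were not called did. Against the IPTG-treated control, with CAF-1 OFF, Prtn3 became 0.0237 and Srgn 0.0393 with library size alone, Srgn 0.00581 with a mean of at least 50 counts, and Prtn3 0.0111 and Srgn 0.0124 with the replicate block. In CAF-1 OFF against HOXA9 OFF cells Ms4a3 became 0.0146 with library size alone.

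With 1 library left out, signs also changed for Prtn3 (-0.34 to 0.28), Ctsg (-0.250 to 0.0418) and Srgn (-0.25 to 0.11) in CAF-1 OFF against uninduced cells. They did for Prtn3 (-0.26 to 0.22) and Srgn (-0.25 to 0.24) against the IPTG-treated control, and for Ms4a3 (-0.55 to 0.18) against HOXA9 OFF cells. In IPTG-treated control against uninduced cells they did for all 8, Mpo (-0.36 to 0.34), Elane (-0.39 to 0.53), Prtn3 (-0.31 to 0.31), Ctsg (-0.13 to 0.17), Ctsc (-0.123 to 0.0653), Srgn (-0.35 to 0.16), Fcnb (-0.33 to 0.36) and Ms4a3 (-0.37 to 0.34). The cause of these changes was not tested beyond the libraries left out, and 2 libraries per group limit all of them.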

Other observations

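Genes beside the primary granule genes were described from lists of their neighbours. In the cluster that holds Ctsg, Mcpt8, a mast cell protease family gene expressed by basophils, was at 34.3 and 29.5 CPM in uninduced, 267 and 228 CPM in CAF-1 OFF and 7.38 and 5.95 CPM in HOXA9 OFF cells. It rose by 2.95 on the log2 scale in CAF-1 OFF (edgeR FDR 0.000534) and fell by 2.26 in HOXA9 OFF cells (FDR 2.96e-05), where Ctsg itself was not called in the first and fell in the second. Of the 13 listed genes of this cluster 2 were tested, and the other was not called in either comparison.

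Near Mpo, 7 of 9 listed symbols had an entry among the annotated genes, and 6 of these were tested. Epx, eosinophil peroxidase, was at 4.89 and 1.88 CPM in uninduced, 3.00 and 6.90 CPM in CAF-1 OFF and 421 and 252 CPM in HOXA9 OFF cells, and rose in the last (log2 fold change 6.64, FDR 6.59e-05), in which the value of Mpo was -0.76 (FDR 0.0506). Bzrap1 was at 502 and 439 CPM in uninduced and 125 and 94.2 CPM in HOXA9 OFF cells and fell by 2.10 (FDR 7.32e-05). In all, 2 of 6 rose and 1 fell in HOXA9 OFF cells, beside 25.2% and 22.1% of all tested genes, and 1 rose and 1 fell in CAF-1 OFF cells, beside 10.5% and 3.5%.

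Around Prtn3 and Elane, 7 of 9 listed neighbours were tested. In CAF-1 OFF against uninduced cells 1 rose, Cfd, complement factor D, a protease gene of the same cluster, from 0.311 and 0.342 CPM to 1.21 and 1.99 CPM (log2 fold change 2.27, FDR 0.0204), beside 10.5% of all tested genes called higher. Compared with the IPTG-treated control, Cfd was not called (1.33, FDR 0.0921). Prss57, a neutrophil serine protease gene, was at 45.2 and 39.4 CPM in uninduced, 52.4 and 43.0 CPM in CAF-1 OFF and 119 and 91.1 CPM in HOXA9 OFF cells. It rose by 1.31 in HOXA9 OFF cells (FDR 0.000338). Arid3a rose by 2.06 (FDR 0.000146) and Ptbp1 fell by 0.95 (FDR 0.000252) in HOXA9 OFF cells, in which 4 of 7 rose and 1 fell in all, beside 25.2% and 22.1% of all tested genes.

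Of 13 listed MS4A family genes around Ms4a3, 7 were tested. In CAF-1 OFF cells 5 of 7 rose and 0 fell (10.5% and 3.5% of all tested genes), and in HOXA9 OFF cells 6 of 7 rose and 0 fell (25.2% and 22.1%). Ms4a6d went from 2.14 and 3.89 CPM to 24.0 and 51.7 CPM in CAF-1 OFF (log2 fold change 3.64, FDR 0.00724) and to 41.3 and 92.6 CPM in HOXA9 OFF cells (4.47, FDR 0.000328). Ms4a7 was at 0.445 and 0.385 CPM in uninduced and at 18.9 and 313 CPM in HOXA9 OFF cells (8.63, FDR 0.00184), with replicate 2 far above replicate 1.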
